A study of Mus musculus with 8 samples.

Results

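Primordial germ cells taken directly from the embryo were set against every group of cells in the series that had passed through culture. Primordial germ cells (PGCs) are the embryonic precursors of eggs and sperm. Membership followed the labels alone. The 2 libraries of endogenous PGCs from E9.5 embryos formed one side and the 6 libraries of cultured cells the other, so all 8 libraries of the series were used. Of 20153 gene identifiers, 11083 were at 1 FPKM or more in at least 2 of the 8 libraries and were tested. FPKM counts fragments relative to transcript length in kilobases and to all mapped fragments, so it allows for both length and depth.

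The E9.5 PGCs were of the Oct4gfpXCD1 strain, at passage 0, with about 250 cells per library. The iPGCs were PGCs made in vitro from embryonic stem cells by a hanging drop method, of the BVSC strain, at passage 21, with 1500 cells per library. The PGC-like cells (PGCLCs) were made from embryonic stem cells in aggregates, also of the BVSC strain at passage 21, with 300 to 500 cells per library. The embryonic germ cells (EGCs) were lines 4 and 7, derived from sorted E9.5 PGCs of the Oct4gfpXCD1 strain, at passage 6, with 500 cells per library. The EGC pair are therefore separate lines, and the EGCs are the only cultured group of the PGCs' own strain. Per the protocols, EGCs were grown with serum and LIF on feeder fibroblasts, and the BVSC stem cells with inhibitors and LIF on laminin. The labels give no treatment for any sample. Culture, a larger number of cells at the start and, for iPGCs and PGCLCs, another strain all separate the cultured groups from the PGCs, and the first 2 cannot be told apart here.

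At E9.5 PGCs are migrating through the hindgut, and they express germ cell determinants together with core pluripotency factors. Cells moved into culture meet serum or defined supplements, plastic or feeder layers, metal ions and oxygen at other levels than in the embryo. Metallothioneins bind zinc and copper and are induced by metals and glucocorticoids. SGK1 is a kinase induced by serum and glucocorticoids, the antioxidant factor NRF2 responds to oxidants, and p53 targets respond to DNA damage and other stress. These are background facts and no result of these libraries.

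Approximate depths, read from the smallest steps between low FPKM values, ran from 2.7 to 21.2 M reads per library (M, 1e6), with the lowest in iPGC library 1. The PGC libraries held 7991 and 8259 genes at 1 FPKM or more, and the cultured libraries 8677 to 10039. The PGC libraries resembled each other less than the libraries of any cultured group did. Pearson's r of log2(FPKM + 1) across genes, which are not independent replicates, was 0.71 within PGCs, 0.882 within iPGCs, 0.794 within PGCLCs and 0.784 within EGCs. Several germ cell markers were present in both PGC libraries. Dppa3 (Stella) was at 410 and 574 FPKM, Pou5f1 at 24.7 and 72.1, Kit at 35.04 and 96.5, and Nanos3 at 7.37 and 22.3. Others were uneven: Ddx4 was at 6.10 and 0.0183, and Mov10l1 and Tdrkh were listed at 0 in PGC library 1. In PGC library 2 these last were at 23.3 and 6.15. Summed over 22 germ cell markers, FPKM was 813 in PGC library 1 and 1807 in PGC library 2. Xist, read from the inactive X chromosome, and the Y-linked Kdm5d were both present in each PGC library.

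Markers of other cell types were uneven between the PGC libraries. Summed over 18 blood and myeloid markers, FPKM was 235 in PGC library 1, 47.3 in PGC library 2 and 8.63 to 39.8 in the cultured libraries. Of these markers, 3 were at 0 in every library. Summed over 15 visceral endoderm markers it was 258 in PGC library 1 and 12.5 in PGC library 2, against 2.01 to 30.0 in the cultured libraries. Gut epithelial markers summed to 5.35 and 6.01 in PGCs and 9.11 to 127.8 in cultured libraries. Most of each cultured sum was Cldn6, at 2.31 to 73.2 FPKM, and Trh, at 1.14 to 109.1. Fibroblast markers summed to 78.5 and 71.1 in PGC libraries 1 and 2 and 44.4 to 57.5 in cultured libraries. Most of each sum was Fn1, which is not particular to fibroblasts, at 47.7 and 68.6 in PGCs and 41.7 to 51.1 in the others. Without Fn1 the other 15 summed to 30.8 and 2.51 in PGCs and 0.4 to 7.38 in cultured libraries, and Dcn and Lum were at 0 in all 6. In such bulk libraries, fewer cells of a type and less RNA per cell cannot be told apart.

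Cultured groups were compared with PGCs by limma on log2(FPKM + 1), with each cultured group weighing the same. P-values were adjusted over all tested genes by the Benjamini-Hochberg method, with a threshold of 0.05. Of the 11083 tested genes, 293 (2.64%) passed, 230 higher in cultured cells (2.08%) and 63 lower (0.568%). Of these genes, 280 were protein-coding and 9 were small RNA genes. All 6 cultured libraries lay above both PGC libraries in 220 of the 230, and below both in 62 of the 63. These counts describe the same values that made the calls and are no separate support. Over all tested genes, the 6 cultured libraries lay above both PGC libraries in 1681 (15.2%) and below both in 671 (6.05%). At an unadjusted p below 0.05 there were 2466 genes.

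The split of calls by direction depended on scaling. Over all tested genes the median log2 difference came to 0.36, that is, a typical gene read higher in cultured cells. With equal library medians 129 genes were called higher and 132 lower, and with quantile normalization 152 and 122. The share of calls that were higher was 78.5% on the deposited values and 49.4% with equal library medians. Of the 293 genes, 192 were also called with equal library medians and 201 with quantile normalization. The log2 differences below are therefore relative: the median of 0.36 has been taken off the difference of all cultured cells. Differences of a single group had that group's own median taken off, 0.47 for iPGCs, 0.44 for PGCLCs and 0.07 for EGCs, so the groups stand on different baselines. Standard errors (SE) and p-values belong to the fitted difference before that step. Differences on this scale understate the change of genes at low FPKM.

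The filter on low values let some genes in through the side where they are high, and these had to differ. Of the 230 genes called higher, 120 were under 1 FPKM in both PGC libraries, and of the 63 called lower, 19 were under 1 FPKM in all 6 cultured libraries. Among the rises counted by list below, this held for 3 of 3 in the hexosamine, p53 and epithelial lists and 2 of 3 in the glucocorticoid and fatty acid lists. It held for 2 of 5 in the glycolysis and hypoxia list, 1 of 5 in the pluripotency list and 0 of 4 in the NRF2 list. List counts and medians describe the members tested and support nothing further.

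The number of calls also rested on single libraries. It was 118 without PGC library 1 and 391 without PGC library 2. It was 20 and 30 without iPGC libraries 1 and 2, 50 and 83 without PGCLC libraries 1 and 2, and 61 and 65 without EGC lines 4 and 7. For comparison, each other group was set against the remaining 3 in the same fit. That gave 2 calls for iPGCs, 0 for PGCLCs and 16 for EGCs.

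Metallothionein 2 (Mt2) had the lowest adjusted p among the protein-coding genes named here. It stood at 9.45 and 3.01 FPKM in PGCs, 614 and 973 in iPGCs, 162 and 110.3 in the PGCLCs, and 296 and 419.6 in EGCs. All 6 cultured libraries lay far above both PGC libraries, with iPGCs highest and PGCLCs lowest. The relative log2 difference was 5.33 ± 0.43 (SE; limma adjusted p = 0.00329). Against PGCs it was 6.44 ± 0.53 in iPGCs, 3.95 ± 0.53 in PGCLCs and 5.71 ± 0.53 in EGCs, and the F test among cultured groups gave an adjusted p of 0.281. Its neighbour Mt1, of the same protein family, was at 38.0 and 0.632 FPKM in PGCs and 43.0 to 544 in the cultured libraries. The groups did not overlap, but PGC library 1 came close to the lowest PGCLC library, and Mt1 did not pass (3.85 ± 1.01, limma adjusted p = 0.0627).

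The promoters of this pair are shown because metal and glucocorticoid response elements are the textbook control sequences of Mt1, Mt2 and Sgk1. They are RefSeq windows of 250 bases that end at the RefSeq transcript start, on the + strand of GRCm38.p6, with the motif searched in capitals. For Mt1 (chr8:94178839-94179088) and Mt2 (chr8:94172368-94172617) capitals mark the metal response element core, TGCACNC or TGCGCNC on either strand.
Mt1: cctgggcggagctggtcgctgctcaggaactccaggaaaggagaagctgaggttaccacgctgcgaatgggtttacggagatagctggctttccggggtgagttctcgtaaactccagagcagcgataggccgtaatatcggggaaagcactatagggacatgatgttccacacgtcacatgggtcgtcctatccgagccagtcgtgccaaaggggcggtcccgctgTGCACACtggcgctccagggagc
Mt2: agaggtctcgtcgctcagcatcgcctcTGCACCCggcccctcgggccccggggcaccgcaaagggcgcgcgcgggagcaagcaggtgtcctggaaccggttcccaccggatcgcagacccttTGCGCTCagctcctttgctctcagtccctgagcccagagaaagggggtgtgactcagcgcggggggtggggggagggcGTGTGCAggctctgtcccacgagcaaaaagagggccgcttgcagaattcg

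The Mt1 window held 1 core and the Mt2 window 3. Of all 32851 promoter windows of this length in the table, 21.41% held 1 or more cores and 1.26% held 3 or more. Among tested genes with a window, 35.6% of 8795 had a core in at least 1 window, against 34.3% of 178 genes called higher and 34.0% of 47 called lower. The GENCODE gene starts differ from these RefSeq starts by 7 bases for Mt1 and 46 for Mt2. Sequence beyond the RefSeq starts was not searched, so the counts belong to these windows and do not compare the promoters of Mt1 and Mt2. A match is a description of letters, not a bound site.

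Few other genes of metal handling passed the test. Of 16 tested members of the metallothionein and zinc transport list, 1 rose, 1 fell and 14 did not pass, with a median relative difference of -0.10. Mt1 and the zinc importer Slc39a4 were above both PGC libraries in all 6 without passing. Slc39a4 was listed at 0 in both PGC libraries, with the 6 others at 0.896 to 5.56 (limma adjusted p = 0.112). The gene that fell was Slc39a14, a zinc and iron importer, at 30.0 and 88.6 FPKM in PGCs and 3.33 to 9.41 in cultured libraries (-3.18 ± 0.51, limma adjusted p = 0.0322). Without PGC library 1 there were 2 rises and 1 fall, and Mt2 alone passed without any other single library.

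Sgk1, the serum- and glucocorticoid-induced kinase, was at 7.01 and 0.260 FPKM in PGCs, 57.0 and 159.6 in iPGCs, 88.3 and 66.7 in the PGCLCs, and 101.3 and 143 in EGCs. Every cultured library exceeded the higher PGC library. The relative difference was 4.57 ± 0.69 (limma adjusted p = 0.0177), and the 3 cultured groups stood close together, at 4.46, 4.18 and 5.19 in iPGCs, PGCLCs and EGCs. The call passed in 13 of 24 other settings. It was lost, with adjusted p between 0.0509 and 0.0634, whenever any 1 of the 6 cultured libraries was left out. One Sgk1 start in RefSeq (chr10:21993640-21993889, + strand) is preceded by a glucocorticoid response element, shown in capitals and searched on either strand as AGAACA, any 3 bases and TGTTCT.
Sgk1: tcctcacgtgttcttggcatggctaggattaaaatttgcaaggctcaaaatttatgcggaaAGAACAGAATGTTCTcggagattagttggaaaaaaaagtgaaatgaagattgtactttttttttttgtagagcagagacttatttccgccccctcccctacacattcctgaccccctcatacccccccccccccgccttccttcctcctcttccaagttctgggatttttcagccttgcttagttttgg

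Only 3 of the 32851 windows (0.009%) held this element. Which Sgk1 start was used in these libraries cannot be read from a value per gene. Of 11 tested genes of the glucocorticoid response list, 3 rose, 0 fell and 8 did not pass, and the list median was 0.86. Beside Sgk1 these were Ddit4, an inhibitor of mTORC1 signalling, at 0.190 and 0.102 FPKM in PGCs and 4.28 to 38.0 in cultured libraries (2.93 ± 0.55, limma adjusted p = 0.0263). The other was the transcription factor Klf9, at 0.314 and 0.0625 in PGCs and 6.71 to 16.6 in cultured libraries (2.91 ± 0.50, adjusted p = 0.0215). Ndrg1 and Nedd4l, a substrate and a ligase partner of SGK1, were also above both PGC libraries in all 6 but did not pass (adjusted p = 0.308 and 0.147). The count of 3 fell to 0 without either iPGC library, PGCLC library 1 or either EGC line, and to 2 without PGC library 1 or PGCLC library 2.

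Uap1l1, a relative of the enzyme that makes UDP-N-acetylglucosamine, was listed at 0 in PGC library 1 and at 0.952 FPKM in PGC library 2. It was at 221 and 118 in iPGCs, 119.6 and 55.1 in the PGCLCs, and 90.2 and 31.7 in EGCs. The PGC and cultured libraries were far apart (5.65 ± 0.55, limma adjusted p = 0.00617), and the groups differed from PGCs by 6.40, 5.44 and 5.22. With Mt2 and the microRNA gene Mir3063 it was 1 of 3 genes called in all 24 other settings. Of 15 tested hexosamine pathway genes, 3 rose, 0 fell and 12 did not pass, with a median of 0.11. Gnpda1, a glucosamine-6-phosphate deaminase, was at 0.154 and 0.293 FPKM in PGCs and 3.998 to 25.4 in cultured libraries (2.90 ± 0.51, limma adjusted p = 0.0226). Gfpt2, which makes glucosamine-6-phosphate, was at 0.698 and 0.150 in PGCs and 4.63 to 13.02 in cultured libraries (2.18 ± 0.48, adjusted p = 0.0361). The count of 3 fell to 2 without PGC library 2 or EGC line 4 and to 1 without any other single library.

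Dnmt3l, the cofactor of the de novo DNA methyltransferases, was listed at 0 in both PGC libraries. It was at 51.8 and 53.4 FPKM in iPGCs, 13.4 and 15.6 in the PGCLCs, and 14.1 and 42.5 in EGCs. It passed (limma adjusted p = 0.00745), with no fold given against a group listed at 0. The overlapping gene on the other strand is Aire, and use of strand is not given in the sources used here. Of 21 tested genes of the DNA methylation list 2 rose, 0 fell and 19 did not pass, and the median was -0.65. The other was the methyltransferase Dnmt3b, at 4.52 and 0.141 FPKM in PGCs and 8.44 to 66.1 in cultured libraries (2.76 ± 0.62, limma adjusted p = 0.0405). The list's other members included Uhrf1, higher in all 6, and Uhrf2 and Mbd3, which were not above the PGC level in any of the 6 (adjusted p = 0.091, 0.126 and 0.215). Without PGC library 1 there were 4 rises, and without any other single library 1.

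**Figure D1:**
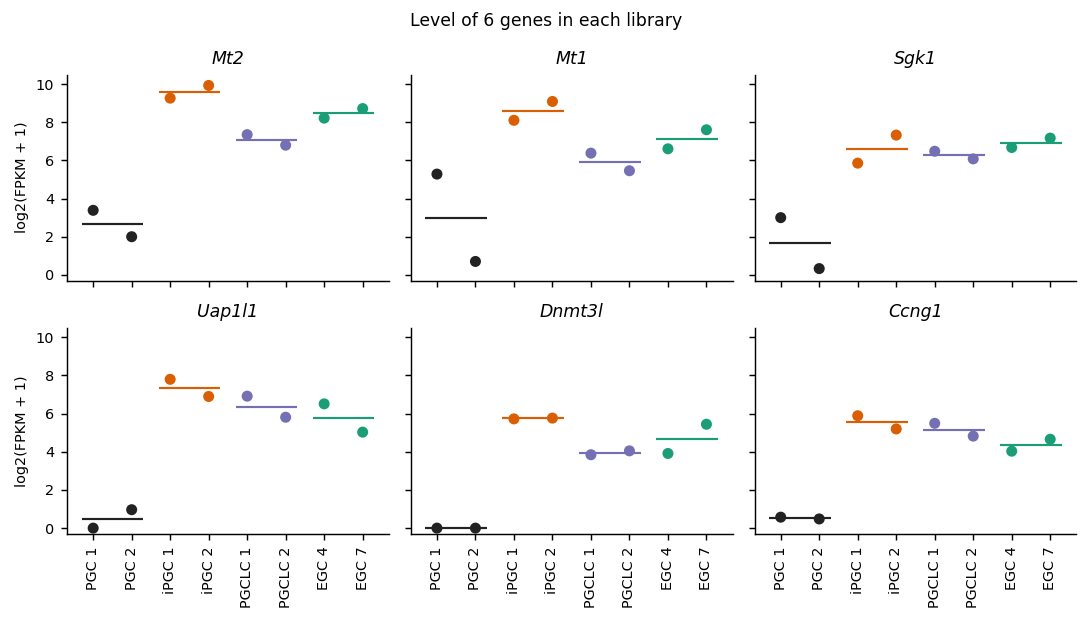
Level of Mt2, Mt1, Sgk1, Uap1l1, Dnmt3l and Ccng1 in each of the 8 libraries, as log2(FPKM + 1); each point is 1 library and each bar the mean of a group's 2 libraries. In all 6 panels the 6 cultured libraries lie above both PGC libraries; the closest approach is Mt1 in PGC library 1, at 38.0 FPKM, and PGCLC library 2, at 43.0.

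The 15 largest rises among well-expressed named genes were of mixed function. Their PGC libraries ran from 0 to 9.45 FPKM and their cultured libraries from 1.93 to 973. All but Mt2, Sgk1, Pold2 and Pla2g1b were under 1 FPKM in both PGC libraries and were tested through the cultured libraries alone. Mylpf, a regulatory light chain of fast muscle myosin, had the largest difference. It was at 0.635 and 0 FPKM in PGCs, 278 and 243 in iPGCs, 833 and 139.7 in the PGCLCs, and 48.4 and 314 in EGCs (7.09 ± 0.80, limma adjusted p = 0.00764). The next gene on the chromosome is Sept1, a septin of the cytoskeleton, which is within 500 bases and was also among the 15. Sept1 was at 0 and 0.854 in PGCs and 6.17 to 78.7 in cultured libraries (4.36 ± 0.60, adjusted p = 0.0121). Reads beyond an annotated end could be shared by such neighbours, and this was not tested.

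Pold2, Upp1 and Nme4 are described together after their values were seen and belong to no single list. Pold2, a subunit of DNA polymerase delta, was at 1.48 and 0.160 FPKM in PGCs and 36.4 to 134 in cultured libraries (4.74 ± 0.52, limma adjusted p = 0.00745). Upp1, the uridine phosphorylase, was at 0.220 and 0.105 in PGCs, 23.6 and 9.37 in iPGCs, 22.5 and 49.4 in the PGCLCs, and 114.8 and 70.1 in EGCs (4.63 ± 0.51, adjusted p = 0.00745). Upp1 was the only 1 of 13 tested pyrimidine metabolism genes to pass, and none fell. The replication genes Pcna and Mcm2 to Mcm7 of the cell cycle list did not pass, with relative differences from -1.01 (Pcna) to -0.34 (Mcm2). Nme4, a mitochondrial nucleoside diphosphate kinase, had 0 in both PGC libraries and lay between 13.3 and 31.1 in all 6 others (adjusted p = 0.0055).

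Genes of lipid use also rose. Fabp3, a fatty acid carrier, was at 0.198 and 0.107 FPKM in PGCs, 88.3 and 111.3 in iPGCs, 40.6 and 15.4 in the PGCLCs, and 7.58 and 19.6 in EGCs (4.46 ± 0.53, limma adjusted p = 0.008). Acadvl, the very-long-chain acyl-CoA dehydrogenase, was at or near 0 in PGCs, at 20.3 and 47.6 in iPGCs, 107.3 and 85.9 in PGCLCs, and only 1.93 and 5.52 in EGCs (4.19 ± 0.52, adjusted p = 0.00912). Its difference in EGCs alone was 2.03 ± 0.63 (adjusted p = 0.154). Acadvl overlaps Dvl2 on the other strand, and Fabp3 overlaps Zcchc17. Apoe, the lipid carrier apolipoprotein E, was at 7.10 and 12.8 in PGCs and 67.0 to 238 in cultured libraries (3.19 ± 0.49, adjusted p = 0.016). These were the 3 of 19 tested fatty acid and lipid genes that rose, with 0 falls, 16 not past the threshold and a median of 0.74. The count of 3 stayed between 2 and 4 when any 1 library was left out.

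Some genes of epithelial junctions and secretion made up another group of rises. Cldn4, a tight junction claudin, was at 0.0449 and 0.143 FPKM in PGCs, 59.2 and 55.7 in iPGCs, 23.9 and 14.1 in the PGCLCs, and 18.4 and 17.4 in EGCs (4.31 ± 0.41, limma adjusted p = 0.0055). Cldn6 was at 0.290 and 0.104 in PGCs and 64.7 and 73.2 in iPGCs. It was uneven in PGCLCs, at 2.31 and 40.7, and at 18.2 and 20.7 in EGCs (4.06 ± 0.82, adjusted p = 0.0343). Its call was lost, with adjusted p from 0.0731 to 0.114, without either PGC library, either iPGC library or either EGC line. For Wfdc2, a secreted protease inhibitor, both PGC libraries were listed at 0 and the others at 2.38 to 60.4 (adjusted p = 0.0322). Of 24 tested epithelial genes 3 rose, 0 fell and 21 did not pass, and the median was 0.63. Of the 24, 19 were above the median of all genes. Krt8, Esrp1, Tjp1, Dsp and Krt19 were below it, from -0.10 (Krt8) to -1.57 (Krt19), without passing. In 11 of the 24 all 6 cultured libraries lay above both PGC libraries, against 15.2% of all tested genes. However, 10 of the 24 were under 1 FPKM in both PGC libraries and were tested through the cultured libraries alone. Over all tested genes this held for 1996 of 11083, so the 2 shares are not alike and nothing is read from them. Cdh1, E-cadherin, was among the 11, at 16.1 and 25.2 in PGCs and 32.3 to 47.5 in the others, without passing (0.62 ± 0.36, adjusted p = 0.166). The count of 3 was 1 or 2 without any single library. Summed gut epithelial markers include Cldn6, which is among these 3 rises, so the sum is not separate from this group. The part of gut cells in it was not tested.

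The remaining named rises were Pla2g1b, a secreted phospholipase, and Ccng1, cyclin G1, a target of p53. Pla2g1b was at 4.60 and 0 FPKM in PGCs, 48.3 and 46.7 in iPGCs, 21.5 and 86.1 in the PGCLCs, and 182.5 and 148 in EGCs (4.54 ± 0.71, limma adjusted p = 0.0192). Without either iPGC library or either EGC line it did not pass (adjusted p from 0.0528 to 0.0694), and Sept1 did not pass without either iPGC library (0.0537 and 0.0556). The other 11 of the 15 named rises passed with any 1 library left out.

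**Figure D2:**
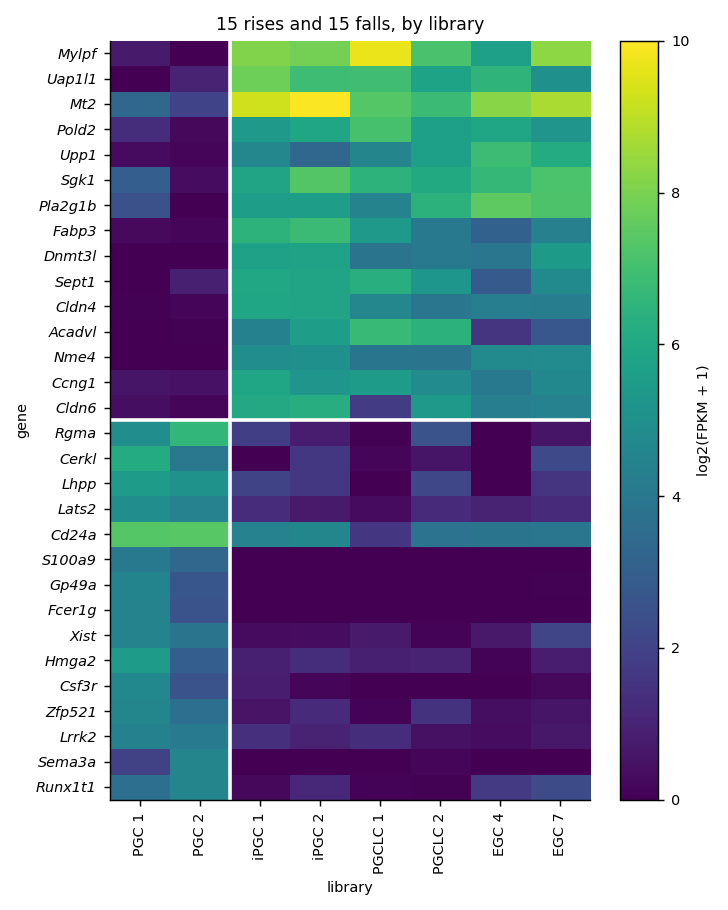
Level of the 15 named rises (upper block) and 15 named falls (lower block) in each library, as log2(FPKM + 1), with white lines between PGC and cultured libraries and between rises and falls. The rises run from 0 to 9.45 FPKM in PGCs, and 14 of the 15 falls are under 5 FPKM in every cultured library; Cd24a is the other.

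On log2(FPKM + 1) before centring, at each named rise except Acadvl, the cultured groups lay closer to each other than the nearest of them lay to PGCs. This partly follows from choosing the largest rises without overlap between PGC and cultured libraries. For the 15 rises the F test among iPGCs, PGCLCs and EGCs gave adjusted p-values from 0.127 to 0.919. A p above the threshold does not show that the groups were equal, and with 2 libraries each the test could find only large differences. Over all tested genes it called 11 (0.0993%). Set against the PGCs one group at a time, 14 of the 15 rises passed in iPGCs, 13 in PGCLCs and 11 in EGCs. These comparisons share the PGC libraries.

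**Figure D3:**
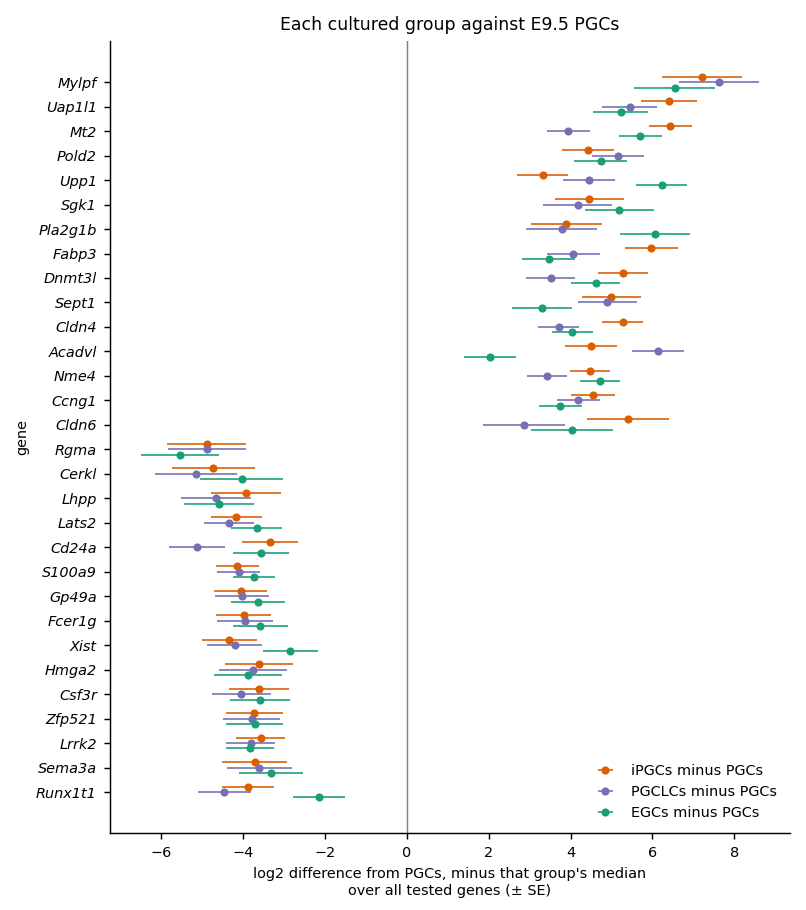
Log2 difference of each cultured group from PGCs for the 30 named genes on the log2(FPKM + 1) scale, less that group's own median over all tested genes (0.47 for iPGCs, 0.44 for PGCLCs and 0.07 for EGCs), with SE bars from the limma fit. All 3 groups lie on the same side of 0 for each gene, which partly follows from choosing genes without overlap between PGC and cultured libraries. Acadvl is lowest in EGCs, at 2.03, and highest in PGCLCs, at 6.13.

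Ccng1 was the most changed member of the p53 target list. It was at 0.488 and 0.396 FPKM in PGCs, 58.2 and 35.7 in iPGCs, 44.0 and 27.3 in the PGCLCs, and 15.4 and 24.2 in EGCs (4.13 ± 0.44, limma adjusted p = 0.00745). Phlda3, an inhibitor of AKT signalling, was at 0 and 0.153 in PGCs and 2.53 to 13.5 in cultured libraries (2.26 ± 0.52, adjusted p = 0.0404). Pmaip1 (Noxa), a BH3-only death gene, was listed at 0 in PGCs and at 1.05 to 10.4 in the others (adjusted p = 0.043). Of 20 tested p53 targets 3 rose, 0 fell and 17 did not pass. The list median, 1.13, was the largest of the response lists examined, and 18 of the 20 were above the median of all genes. In 11 of the 20 all 6 cultured libraries lay above both PGC libraries, against 15.2% of all tested genes. Of the 20, 5 were under 1 FPKM in both PGC libraries and were tested through the cultured libraries alone. Mdm2, the ubiquitin ligase of p53, was among these 11, at 23.1 and 27.9 in PGCs and 38.6 to 177 in the others, without passing (1.00 ± 0.44, adjusted p = 0.127). The count was 2 without PGC library 2 and 1 without any other single library, and 1 with equal library medians.

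Antioxidant genes under NRF2 control showed 4 rises, 0 falls and 16 not past the threshold among 20 tested, with a median of 0.97. Gsta4, a glutathione transferase, was at 36.0 and 36.7 FPKM in PGCs and 134 to 282 in cultured libraries (2.01 ± 0.34, limma adjusted p = 0.0186). Sod1, the cytosolic superoxide dismutase, was at 61.1 and 106.3 in PGCs, 564 and 483 in iPGCs, 783 and 418 in the PGCLCs, and 139.4 and 274 in EGCs (1.89 ± 0.40, adjusted p = 0.032). Nfe2l2, which encodes NRF2 itself, was at 6.13 and 7.20 in PGCs and 20.0 to 47.9 in the others (1.64 ± 0.40, adjusted p = 0.042). The peroxiredoxin Prdx1 was at 36.2 and 59.9 in PGCs and 94.2 to 183 in the others (1.16 ± 0.32, adjusted p = 0.0465). Nqo1, a standard NRF2 target, was at 0.0727 and 0.0809 in PGCs and 3.34 to 49.3 in the others, without passing (2.54 ± 0.85, adjusted p = 0.102). The count was 2 with equal library medians, 5 without PGC library 2, 2 without PGCLC library 2, 1 without iPGC library 2 and 0 without any other single library.

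The list of glycolysis and hypoxia genes showed 5 rises, 0 falls and 22 not past the threshold among 27 tested, with a median of 0.61. The 5 were genes of glucose uptake or glycolysis. Members that did not pass included the glycolysis genes Hk1, Hk2, Gpi1, Pfkl, Pfkp, Aldoa, Tpi1, Gapdh, Pgk1, Pgam1, Eno2, Pkm and Ldha. Also not past the threshold were Hif1a, Vegfa, Egln3, Bnip3, Ankrd37, P4ha1, Ero1l, Pdk1 and Slc16a3. Glycolysis and hypoxia genes form 1 list here, and a response to hypoxia was not tested. The glucose transporter Slc2a1 was at 39.6 and 35.4 FPKM in PGCs and 97.7 to 161.6 in cultured libraries (1.41 ± 0.32, limma adjusted p = 0.0328). Slc2a3 was at 27.4 and 80.1 in PGCs and 154.6 to 272 in the others (1.75 ± 0.41, adjusted p = 0.0395). The enolase Eno1 was at 36.8 and 48.7 in PGCs and 104.9 to 153.5 in the others (1.28 ± 0.30, adjusted p = 0.0343). Aldoc, an aldolase, and Pfkm, a phosphofructokinase that overlaps Senp1, also passed (adjusted p = 0.0336 and 0.033). Of the 5, 3 were glucose transporters or enolase and the other 2 were isoforms at or near 0 in PGCs. The count was 1 with equal library medians, 3 without PGC library 2, 1 without EGC line 7 and 0 without any other single library.

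Other stress lists held few calls or none. Of 17 ATF4 targets none rose or fell by the test, though 5 were above both PGC libraries in all 6 (15.2% of all tested genes were). Among these 5, Asns, asparagine synthetase, was at 7.78 and 43.4 FPKM in PGCs and 62.1 to 207 in the others (2.32 ± 0.60, limma adjusted p = 0.0555). Of 17 sterol synthesis genes and 15 immediate early genes none passed. Hspb1, a small heat shock protein, was the only 1 of 15 heat shock genes to rise, at 0.265 and 3.87 FPKM in PGCs and 14.45 to 49.6 in the others (2.98 ± 0.57, adjusted p = 0.0293). Hsph1 and Dnajb1 lay below both PGC libraries in all 6 without passing (adjusted p = 0.0851 and 0.0939). With a pseudocount of 0.1, 2 ATF4 targets passed. The Hspb1 call was lost without any single library other than PGC library 2.

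**Figure D4:**
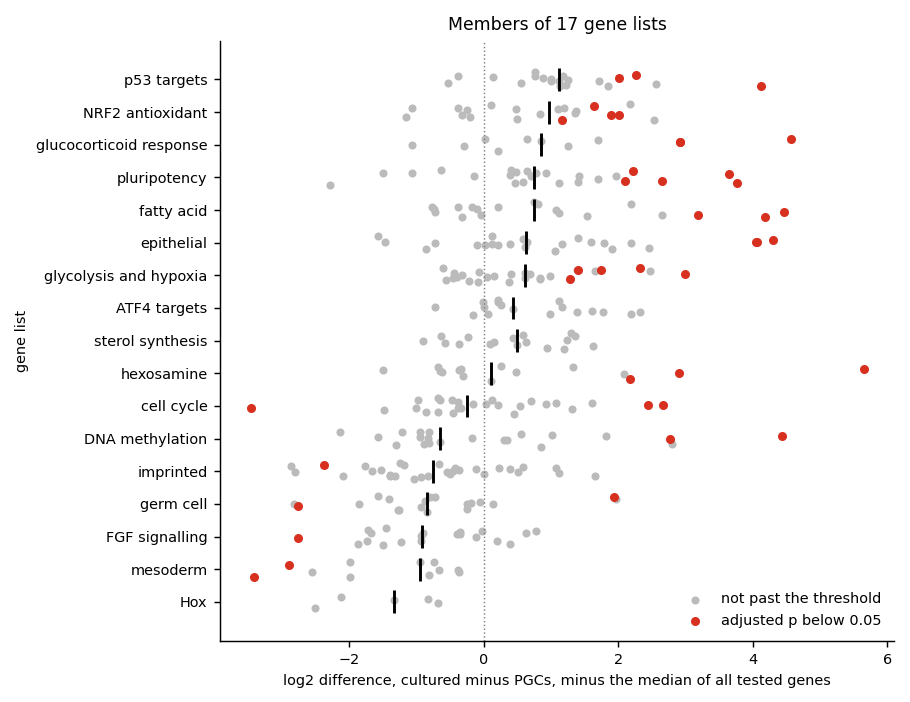
Relative log2 difference between cultured cells and PGCs of each tested member of 17 gene lists; red points passed the threshold, grey points did not, and black bars are list medians. The p53, NRF2 and glucocorticoid lists have the highest medians, 1.13, 0.97 and 0.86, and the Hox list, with 5 of 38 genes tested, the lowest, -1.34.

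Pluripotency genes showed 5 rises, 0 falls and 19 not past the threshold among 24 tested, with a median of 0.74. Nanog was at 6.69 and 16.1 FPKM in PGCs, 73.2 and 90.9 in iPGCs, 81.2 and 82.6 in the PGCLCs, and 46.9 and 45.4 in EGCs (2.22 ± 0.39, limma adjusted p = 0.0214). Dppa5a, which binds RNA in pluripotent cells, stood at 6.78 and 20.1 in PGCs and 73.4 to 369.6 in the others (3.65 ± 0.49, adjusted p = 0.0106). Tdgf1, the NODAL co-receptor Cripto, was at 0.534 and 4.78 in PGCs, 14.3 and 6.54 in iPGCs, 95.7 and 64.0 in the PGCLCs, and 189 and 145 in EGCs (3.77 ± 0.56, adjusted p = 0.0151). Fgf4 and Dppa2 also rose (adjusted p = 0.0258 and 0.0404). Other members lay on the other side. Sall4 was at 193 and 194 in PGCs and 56.7 to 133 in the others (-1.49 ± 0.29, adjusted p = 0.0759), and Sox2 at 30.5 and 31.8 against 10.8 to 26.8 (-1.06 ± 0.37, adjusted p = 0.3). The count of 5 rises was 6 without PGC library 2, 3 without PGC library 1, 1 without PGCLC library 1 or EGC line 4, 2 without iPGC library 2, PGCLC library 2 or EGC line 7, and 0 without iPGC library 1.

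Most germ cell genes leaned lower in cultured cells, but few passed. Of 19 tested 1 rose, 1 fell and 17 did not pass, with a median of -0.85, and 3 were above the median of all genes. The groups differed: Dppa3, Prdm1 and Tfap2c were at -2.97, -3.08 and -2.06 in EGCs. In iPGCs and PGCLCs these 3 were between -0.87 and 0.08. Elavl2 went the other way, at 0.78 in EGCs, -0.39 in iPGCs and -1.01 in PGCLCs. Dazl, which binds RNA in later germ cells, stood at 0 and 0.156 FPKM in PGCs, 4.26 and 7.00 in iPGCs, 11.9 and 9.65 in the PGCLCs, and 1.12 and 0.805 in EGCs (1.94 ± 0.47, limma adjusted p = 0.043). Itgb3, an integrin of PGCs, was at 19.07 and 14.3 in PGCs, 4.43 and 2.64 in iPGCs, 4.64 and 8.27 in the PGCLCs, and 0.0119 and 0.250 in EGCs (-2.77 ± 0.49, adjusted p = 0.043). Nanos3 was below both PGC libraries in all 6 but did not pass (-2.82 ± 0.64, adjusted p = 0.0789). Neither call passed when any 1 library was left out.

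The 15 largest falls came from genes at 2.92 to 169 FPKM in PGCs. In 14 of the 15 every cultured library was under 5 FPKM. Cd24a, a surface glycoprotein, was the exception: it was at 163 and 169 in PGCs, 20.4 and 23.1 in iPGCs, 1.97 and 13.02 in the PGCLCs, and 13.4 and 14.0 in EGCs (-4.05 ± 0.56, limma adjusted p = 0.0215). Lats2, a kinase of the Hippo pathway that restrains YAP, was at 29.3 and 20.8 in PGCs and 0.242 to 1.39 in the others (-4.10 ± 0.51, adjusted p = 0.0151). Lrrk2, a kinase, was at 19.8 and 16.8 in PGCs and 0.273 to 1.58 in the others (-3.78 ± 0.49, adjusted p = 0.0186). In these 3 genes the PGC libraries were close to each other and far from all 6 cultured libraries.

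The other falls were genes of mixed function. Rgma, a BMP co-receptor and guidance molecule, was at 28.7 and 97.5 FPKM in PGCs and 0 to 4.88 in the others (-5.14 ± 0.78, limma adjusted p = 0.0258). Sema3a, a secreted guidance protein, had 2.92 and 22.2 in PGCs and was listed at 0 in 5 of the 6 cultured libraries, with 0.131 in PGCLC library 2 (-3.59 ± 0.64, adjusted p = 0.0404). The chromatin protein Hmga2 was at 43.8 and 7.00 in PGCs and 0.0649 to 1.504 in the others (-3.79 ± 0.68, adjusted p = 0.0404). The transcriptional regulators Zfp521 and Runx1t1 also fell, from 23.3 and 11.7 and from 11.5 and 22.3 in PGCs (adjusted p = 0.0263 for each). So did the phosphatase gene Lhpp, which overlaps Fgfr2, and Cerkl, which overlaps Itga4 and Neurod1 (adjusted p = 0.0293 and 0.0367).

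Among the 15 falls, 4 are genes of myeloid blood cells, grouped here after their values were seen. S100a9, a calcium-binding protein of neutrophils, was at 15.6 and 8.77 FPKM in the PGC libraries, with all 6 others listed at 0 (limma adjusted p = 0.00987). Fcer1g, an immune receptor chain, was at 21.4 and 4.85 and likewise listed at 0 in all 6 (adjusted p = 0.0231). Gp49a, an immunoglobulin-like receptor, was at 21.8 and 5.42 in PGCs and at most 0.0446 in the others (-3.94 ± 0.54, adjusted p = 0.0211). Csf3r, the G-CSF receptor, was at 24.6 and 4.93 in PGCs and at most 0.709 in the others (-3.79 ± 0.60, adjusted p = 0.0312). PGC library 1 was the higher for all 4, as it was for the summed blood markers given above, 235 against 47.3. The platelet gene Pf4 and the macrophage gene Lyz2 were at 27.2 and 62.1 in PGC library 1 and at 0 and 0.713 in PGC library 2. Of these 4, S100a9 and Fcer1g are in the blood marker list, and Gp49a and Csf3r are not. Of 18 listed genes 5 were tested, and the other 3 did not pass: Laptm5 was at 1.87 and 0 in PGCs and 0.149 to 33.4 in the others (1.97 ± 1.09, adjusted p = 0.251). Cd68 was at 24.2 and 0 in PGCs and 3.11 to 16.3 in the others (0.21 ± 1.11, adjusted p = 0.78), and Alas2 at 2.26 and 32.7 against 0.0735 to 3.08 (-2.69 ± 0.84, adjusted p = 0.155). The part of blood cells in these falls was not tested.

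Xist, the RNA that coats the inactive X chromosome, was at 21.4 and 13.5 FPKM in PGCs and 0.0592 to 3.27 in the cultured libraries (-3.84 ± 0.55, limma adjusted p = 0.0231). Kdm5d, a Y-linked demethylase, was at 12.02 and 5.80 in PGCs and 0 to 2.31 in the others (-2.89 ± 0.51, adjusted p = 0.042). The other Y-linked genes of the list did not pass. Eif2s3y was at 12.7 and 50.95 in PGCs, 7.27 to 30.5 in 5 cultured libraries and 0 in EGC line 4 (-1.67 ± 1.06, adjusted p = 0.484). Uty was at 3.45 and 1.63 in PGCs and up to 10.9 in EGC line 7, and Ddx3y at 2.99 and 2.65 in PGCs and up to 2.89 in the others. All 4 Y-linked genes were listed at 0 in EGC line 4. The sex of the lines is not given in the labels. Xist overlaps its antisense gene Tsix. The Xist and Kdm5d calls held without PGC library 2, 1 of them without EGC line 7 and neither without any other single library.

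None of the 15 falls passed in every fit with 1 library left out. The call was lost for all 15 without iPGC library 1 and for 14 without iPGC library 2. It was lost for 13 and 12 without EGC lines 4 and 7, 11 and 8 without PGCLC libraries 1 and 2, and 9 and 3 without PGC libraries 1 and 2. In the last 2 fits only 10 of the 15 falls were tested, since Csf3r, Fcer1g, Gp49a, S100a9 and Sema3a were at 1 FPKM or more in the PGC libraries alone. The fits that left out a library gave adjusted p-values from 0.0501 to 0.126 where a fall was lost. Among the 6 fits without a cultured library, S100a9 was lost only without iPGC library 1, and Lats2 only without either iPGC library. Lats2 was also lost without PGC library 1. All 15 kept their direction in every setting in which they were tested.

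Most genes of the mesoderm and Hox lists were too low to test: 11 of 23 mesoderm genes and 5 of 38 Hox genes passed the filter. Of the 11 tested mesoderm genes 2 fell, 0 rose and 9 did not pass. Wnt5a, Hoxa3 and Hoxd3 were tested through the PGC libraries alone, so they had to differ and no level is read from these lists as a whole. Wnt5a, a secreted WNT ligand, was at 5.79 and 6.09 FPKM in PGCs and 0 to 0.777 in the others (-2.89 ± 0.41, limma adjusted p = 0.0245). Tbx4, a T-box factor of hindlimb and allantois, was at 7.11 and 13.4 in PGCs and 0 to 1.54 in the others (-3.42 ± 0.55, adjusted p = 0.0322). Of the 5 tested Hox genes none was called, and Hoxa3 had 1.37 and 3.83 in PGCs, with all 6 others listed at 0 (adjusted p = 0.0599). With equal library medians 4 mesoderm genes and 1 Hox gene were called lower. The mesoderm count was 1 without PGC library 2 or PGCLC library 2 and 0 without any other single library.

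Among 30 tested imprinted genes 1 fell and 0 rose, with a median of -0.75. Peg3, a paternally expressed zinc finger gene, was at 162.5 and 125.7 FPKM in PGCs, 25.1 and 22.2 in iPGCs, 105.5 and 79.4 in the PGCLCs, and 28.3 and 12.96 in EGCs (-2.37 ± 0.39, limma adjusted p = 0.0376). PGCLCs stood nearest to PGCs. Grb10 and Asb4 were below both PGC libraries in all 6 without passing (adjusted p = 0.055 and 0.059). Of 20 FGF pathway genes 1 fell, the small GTPase Hras, from 169.9 and 105 to 5.50 to 51.6 (-2.76 ± 0.46, adjusted p = 0.037), with a median of -0.92. With equal library medians 3 imprinted genes were called lower, and 2 without PGC library 2. Without any other single library neither list held a fall. In the Hippo list of 19 genes Tead4, a partner of YAP, rose from 0 in both PGC libraries to 2.60 to 8.49 (adjusted p = 0.0386) while Lats2 fell, and the Tead4 call was lost without any 1 library.

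Cell cycle genes were divided. Of 26 tested 2 rose, 1 fell and 23 did not pass, with a median of -0.25. Cdk1, the mitotic kinase, was at 4.76 and 9.74 FPKM in PGCs and 29.0 to 110.2 in the others (2.44 ± 0.47, limma adjusted p = 0.0264). For Cdk2, which overlaps Pmel, both PGC libraries were listed at 0 and the others at 3.75 to 14.8 (adjusted p = 0.0361). Ccnd2, cyclin D2, was at 21.8 and 5.31 in PGCs and 0 to 1.89 in the others (-3.46 ± 0.57, adjusted p = 0.0333). Mki67, the usual proliferation marker, was lower in all 6, at 69.1 and 63.1 in PGCs and 25.2 to 34.2 in the others, without passing (-1.48 ± 0.34, adjusted p = 0.108). Without PGC library 2 there were 3 rises and 1 fall, and without any other single library none.

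The remaining lists held few calls. Of 16 BMP pathway genes the only call was the fall of Rgma, and of 10 genes of LIF signalling the only call was the rise of Pim1, a kinase induced by STAT3. The latter was lost with equal library medians and without any single library other than PGC library 2. Of 13 retinoic acid genes none passed, and 2 were lower without PGC library 2. Of the marker lists of other cells, 2 of the 5 tested blood genes were called (S100a9 and Fcer1g), both tested only because the PGC libraries, where they are high, passed the filter. Of 2 gut genes Cldn6 rose, tested through the cultured libraries alone, and none of 10 visceral endoderm, 4 endothelial or 5 fibroblast genes passed. Without PGC library 2, 4 visceral endoderm genes were called lower.

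Called genes differed in transcript length from the rest. The longest annotated transcript had a median length of 3405 bases over all tested genes, 2413 bases in genes called higher and 5437.5 bases in genes called lower. Their median GC content was 49.9%, 52.6% and 48%. The relative difference fell with length over all genes, from a median of 0.51 under 1 kb to -0.41 at 6 kb or more. Among 535 genes under 1 kb 36 were called higher and 3 lower, and among 1628 genes of 6 kb or more 10 were called higher and 26 lower. After each library was adjusted for length and GC content, 268 genes were called, 215 higher and 53 lower, of which 228 were among the 293. Mt2 (511 bases), Mylpf (766) and Fabp3 (823) are short and Lrrk2 (8275) and Xist (17946) long. The 4 marker genes Mt2, Sgk1, Uap1l1 and Dnmt3l were all called after the adjustment. Whether amplification of small amounts of RNA made this trend was not tested.

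**Figure D5:**
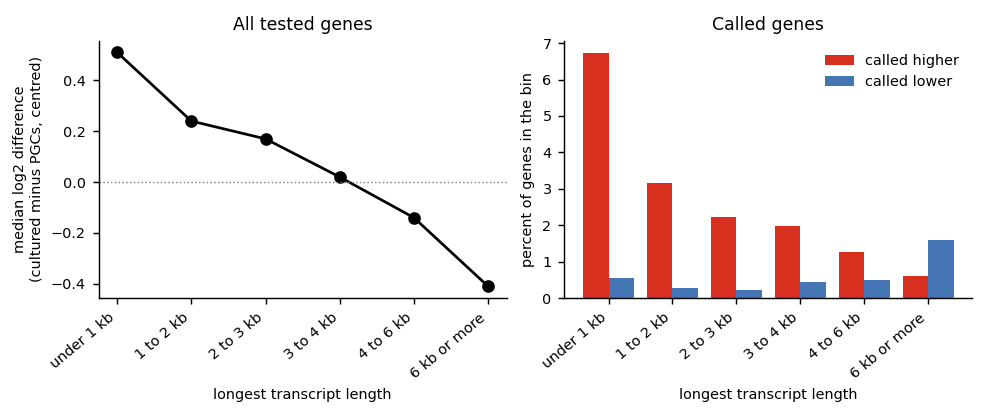
Left, median log2 difference (cultured minus PGCs, centred on all tested genes) by length of the longest transcript; right, percent of genes in each length bin called higher or lower. The median goes from 0.51 under 1 kb to -0.41 at 6 kb or more.

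Some genes were read on 1 side only. In all, 32 genes were listed at 0 in both PGC libraries while all 6 cultured libraries had 1 FPKM or more, and 7 genes showed the reverse. Of the 230 genes called higher, 20 were listed at 0 in both PGC libraries and 139 had a mean under 1 FPKM in PGCs. Of the 63 called lower, 31 had a mean under 1 FPKM in cultured cells. A set of 16 genes was called with all libraries and in every fit with 1 library left out, all of them higher in cultured cells. Beside Mt2, Uap1l1, Mylpf, Pold2, Upp1, Fabp3, Dnmt3l, Cldn4, Acadvl, Nme4 and Ccng1 they were Mir3063, Trap1a, Cd9, Cstb and Rnasek. Cd9 is a tetraspanin of the cell surface and Cstb the protease inhibitor cystatin B. These 5 were taken from that count after their values were seen. Of the others, all but Mt2 and Pold2 were under 1 FPKM in both PGC libraries. The filter let those in through the cultured libraries alone, so they had to differ.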

How the data were processed

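Total RNA from 8 libraries was amplified with the Ovation RNA-Seq System V2 after spike-in RNA had been added, and sequenced as 50-base single-end reads in 2 lanes, per the labels' protocols. TopHat2, Cufflinks and GRCm38 (mm10) are named in the submitters' processing notes, without versions. For the annotation, the filters and whether strand was used, the answer is not given in the sources used here. The authors deposited FPKM, fragments per kilobase and scaled to mapped fragments, with 1 column per library. Per the labels each group has 2 biological replicates, and nothing says that they came from separate litters or differentiations, so p-values measure the spread between these samples.

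The table had 20171 entries, of which 18 were further entries of 15 identifiers and were dropped. GENCODE M21 held 19747 of the identifiers and gave symbols, positions, transcript lengths and GC content. Read counts were not used here, so no count test was run. Depth was approximated from the smallest steps of low FPKM of single-transcript genes over 1 kb. It is rough, and no interval was drawn from it. Since 0 can stand for an estimate that failed, a gene with it is said to be listed at 0.

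Genes at 1 FPKM or more in 2 libraries were fitted as log2(FPKM + 1) with limma 3.58.1 in R 4.3.3 (group means; variance trend; robust). The contrast was the mean of the 3 cultured groups minus PGCs. Tests were two-sided. Residual degrees of freedom were 4 and prior ones 4.53 at the median, and the smallest log2 difference called was 1.43. The step was tested on simulated data. Differences among cultured groups were tested by the moderated F test. Named genes are the 15 largest rises and 15 largest falls past the threshold with a mean of at least 10 FPKM on the higher side and no overlap between PGC and cultured libraries. Predicted genes, ribosomal protein genes, small RNAs and pseudogenes were skipped. The 4 marker genes and members of 33 gene lists could be named too. The comparison, its members and the lists were chosen with earlier results of these data known, so no list is independent evidence. Promoter windows are from RefSeq (GRCm38.p6); Uap1l1 had no entry in it.

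The settings tried were pseudocounts of 0.1 and 5, filters of none and 5 FPKM, equal library medians, quantile normalization, no trend, a 2-group fit, a minimum difference, library weights, a replicate block, each library or cultured group left out and, added after seeing the data, adjustment for length and GC content. Spike-in values were not analysed here.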

Additional observations from a re-analysis of the deposited data

Results flagged for a closer look

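In all, 6 genes called against PGCs also differed among iPGCs, PGCLCs and EGCs by the moderated F test of limma, and all 6 are small RNA loci of at most 131 bases. Gm27446, Mir1951, Mir379 and Mir758 were read only in the EGC lines (F test adjusted p = 0.0027 for each). Gm27446 was at 258 and 288.5 FPKM, Mir1951 at 122 and 277, Mir379 at 222.5 and 677, and Mir758 at 107 and 94.5 in EGC lines 4 and 7, and each was listed at 0 in the other 6 libraries. Mir3091 was read only in iPGCs, at 1016 and 315 FPKM (adjusted p = 0.0027). Scarna8 was listed at 0 in PGCs and iPGCs, at 64.8 and 141.4 in PGCLCs and at 154.4 and 58.6 in EGCs (adjusted p = 0.0109). These genes count among the 293 calls although 1 or 2 cultured groups matched the PGCs at 0. Without EGC line 4 the F test called 0 genes in all. FPKM of loci this short, read after fragmentation, is uncertain. Groups of 2 libraries are too small for a test of single outlying libraries.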

How the results depend on the processing

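The 293 calls became 547 with a pseudocount of 0.1, 81 with a pseudocount of 5, 47 with no filter, 27 with a minimum log2 difference of 1 and 43 with library weights. They were 7 without the iPGC group, 52 without the PGCLC group and 122 without the EGC group. With 1 library left out they ran from 20 to 391, the genes that differed among cultured groups from 0 to 26 (11 in the fit with all libraries), and the genes whose libraries did not overlap from 2418 to 5231 (2352 with all). Fits without a library have fewer samples, and the cause of the changed counts was not tested. The replicate numbers shared by PGCs, iPGCs and PGCLCs did not pair the libraries (correlations of deviations 0.007, -0.029 and 0.058). With a replicate block over these 6 libraries 48 genes were called, against 122 without the block. Of 706 pairs of a named gene and another setting, 461 kept the call, 245 did not pass and 0 reversed. Mt2 and Uap1l1 passed in all 24 settings (highest adjusted p = 0.0302 and 0.0488), Dnmt3l in 23 and Sgk1 in 13. With 2 PGC libraries and no read counts, small differences were not detectable here, and differences larger than the smallest one called could be missed too.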

Other observations

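Stmn2, a neuronal microtubule regulator that was among the neural markers, rose in cultured cells, from 0.0535 and 0.0606 FPKM in PGCs to 20.3 and 5.80 in iPGCs, 1.87 and 3.43 in the PGCLCs and 38.2 and 27.9 in EGCs (relative log2 difference 3.06 ± 0.56, limma adjusted p = 0.0261; lost without any single library other than PGC library 2). The 11 neural markers together summed to 61.3 and 3.196 FPKM in the PGC libraries and 9.32 to 58.2 in the cultured libraries, so the list as a whole overlapped.

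In the primed epiblast list 4 genes, Otx2, Lefty2, Nodal and Zic2, were above both PGC libraries in all 6 cultured libraries (15.2% of all tested genes were), and none of the 11 tested passed, though 1 did without PGCLC library 2. Of the 11, 5 were under 1 FPKM in both PGC libraries and were tested through the cultured libraries alone. Lefty2, a NODAL antagonist, was at 0 and 0.272 FPKM in PGCs and 1.08 to 13.3 in the others (2.33 ± 0.70, limma adjusted p = 0.0783). Otx2, an epiblast and forebrain transcription factor, had both PGC libraries listed at 0 and the others at 0.487 to 29.0 (adjusted p = 0.135), with the extremes in the PGCLC pair.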
